A study of Mus musculus with 2 samples.

Results

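Messenger RNAs of 35 genes that a cell needs to copy its DNA and to divide were followed through the cell classes of the mouse colon. The genes were chosen by symbol, as genes of S phase and mitosis, and each had 1 row among the 33083 genes of the count matrices. They were kept as 12 S phase genes and 22 mitotic genes, with Stmn1, which encodes the microtubule-destabilizing protein stathmin, set apart. In a cell that prepares to divide, MCM helicase subunits are loaded onto replication origins, the sliding clamp PCNA holds the polymerases on the template, and ribonucleotide reductase and thymidylate synthase supply the nucleotides. Transcripts of the mitotic genes, among them cyclin B, its kinase and the motors and kinases of the spindle, accumulate later, in G2 and mitosis, and decline as the cell returns to G1. In the colon these genes are known from the base of the crypt, where stem cells and transit-amplifying cells divide before their daughters differentiate and move toward the surface.

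Single-cell RNA sequencing had been run on colon tissue of AD mice, a transgenic Alzheimer's disease model of the APP/PS1-21 line, and of WT mice. In that line the transgenes carry mutant human APP and presenilin 1, and their promoter, that of Thy1, is mainly active in neurons. The labels give neither the age, sex or strain background nor how many mice each library was made from. Trypsin and DNase I had released the cells from minced tissue, so the cells of the colon wall are present along with the epithelium. Each genotype was represented by 1 library, so there was no replicate, no difference between genotypes could be tested, and every difference is between 2 libraries. Intervals are 95% and cover counting error only.

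The AD library held 6675 barcodes with 38731915 unique molecular identifiers (UMIs, each standing for 1 captured transcript), and the WT library held 4146 barcodes with 26898149 UMIs. Mitochondrial transcripts made up more than 25% of the UMIs in 29.2% of AD barcodes and in 60.4% of WT barcodes, and these were left out. Of the remaining cells, 4689 were from the AD library and 1546 from the WT library, with medians of 3717 and 3714.5 UMIs per cell. The libraries shared 7 barcodes. Classes were rebuilt from marker genes after clustering without 269 cell cycle and histone genes, and are written "-like" for that reason. The epithelial-like class (1488 AD and 545 WT cells) had UMIs for 13 of 15 epithelial markers in both libraries, and Elf3 and Tspan8 were at 0 in both. Levels of single genes and of marker sums are given as CPM, UMIs scaled to a class total of 1000000. Plasma cell marker transcripts came to 4601 CPM in the AD epithelial-like class and 979 CPM in the WT one, and to 6681 and 839 CPM in AD and WT goblet-like cells; all 11 markers had UMIs except Tnfrsf17 and Eaf2, at 0 in WT goblet-like cells. Genes known to be induced by tissue dissociation summed to 165 UMIs per 10000 in AD and 144 in WT epithelial-like cells. For both lists, their part in the results below was not tested.

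The promoters of both gene groups are shown first, because the sets differed in sequence as well as in their counts. RefSeq promoters of build GRCm38.p6, each running from 250 bases before to 50 bases after the gene's start, were matched by symbol for 28 of the 35 genes. The motifs searched for on both strands were the cell cycle homology region (CHR, TTTGAA or TTCGAA), the CCAAT box (CCAAT) and E2F words (TTTCCCGC, TTTGGCGC, TTCCCGCC or TTGGCGCC, which overlap each other). The CHR is the element known to recruit the DREAM and B-MYB–FOXM1 complexes to G2 and mitotic genes, and E2F sites are known from genes of the G1/S transition. The promoters of Cdk1, the mitotic kinase (chr10:69352863-69353162, minus strand), Cdc20, the activator of the anaphase-promoting complex (chr4:118437294-118437593, minus strand), Plk1, a mitotic kinase (chr7:122159185-122159484, plus strand), and Mcm5, a helicase subunit (chr8:75109259-75109558, plus strand), are printed with all motif matches in capitals. Cdc20 had among the lowest AD to WT ratios, Plk1 was the exception among the mitotic genes, and Mcm5 stands for the S phase genes.
Cdk1: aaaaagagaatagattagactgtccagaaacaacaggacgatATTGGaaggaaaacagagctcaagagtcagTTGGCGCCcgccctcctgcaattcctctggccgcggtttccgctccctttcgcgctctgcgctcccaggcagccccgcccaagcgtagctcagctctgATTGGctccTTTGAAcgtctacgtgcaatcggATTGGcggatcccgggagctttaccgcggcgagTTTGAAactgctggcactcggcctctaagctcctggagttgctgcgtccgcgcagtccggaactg
Cdc20: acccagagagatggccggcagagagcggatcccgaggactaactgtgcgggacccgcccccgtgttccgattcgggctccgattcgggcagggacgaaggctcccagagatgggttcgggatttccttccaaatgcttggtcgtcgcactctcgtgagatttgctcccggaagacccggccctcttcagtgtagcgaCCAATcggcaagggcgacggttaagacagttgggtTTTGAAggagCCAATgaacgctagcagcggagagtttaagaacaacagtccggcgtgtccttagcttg
Plk1: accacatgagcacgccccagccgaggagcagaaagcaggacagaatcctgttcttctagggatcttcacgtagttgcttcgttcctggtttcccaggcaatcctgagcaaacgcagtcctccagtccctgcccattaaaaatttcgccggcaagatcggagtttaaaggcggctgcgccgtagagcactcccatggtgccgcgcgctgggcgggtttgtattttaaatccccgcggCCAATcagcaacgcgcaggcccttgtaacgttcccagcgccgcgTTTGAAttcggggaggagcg
Mcm5: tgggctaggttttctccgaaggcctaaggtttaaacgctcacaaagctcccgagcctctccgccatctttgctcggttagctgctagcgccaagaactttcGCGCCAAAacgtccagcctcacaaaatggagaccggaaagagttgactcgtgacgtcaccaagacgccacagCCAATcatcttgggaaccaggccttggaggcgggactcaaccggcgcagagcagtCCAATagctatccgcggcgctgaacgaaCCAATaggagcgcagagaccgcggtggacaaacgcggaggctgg
A CHR was found in 15 of the 18 mitotic promoters on the table (83.3%) and in 2 of the 10 S phase promoters (20%), against 5254 of all 27025 promoters of that length (19.4%). A CCAAT box stood in 16 mitotic promoters (88.9%) and 8 S phase promoters (80%), against 37.9% of all promoters. An E2F word stood in 5 S phase promoters, those of Rrm1, Mcm3, Mcm5, Mcm6 and Mcm7, and in 2 mitotic ones, those of Cdk1 and Ccnb1, against 3.87% of all. The 3 mitotic promoters without a CHR in this window were those of Birc5, Ccnb1 and Nusap1. Plk1 had both a CHR and a CCAAT box, like 14 other mitotic promoters. These matches describe letters in a window and were not tested as binding sites.

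In epithelial-like cells the transcripts of both groups were scarcer in the AD library, and the mitotic ones more so. The 22 mitotic genes together gave 5.40 UMIs per 10000 in the AD library, from 9704 UMIs, and 14.2 per 10000 in the WT library, from 12047 UMIs. The AD to WT ratio was 0.381 (interval 0.371 to 0.391). The 12 S phase genes gave 2.80 per 10000 in AD cells and 4.49 in WT cells, a ratio of 0.624 (0.598 to 0.651). By gene, 21 of the 22 mitotic genes and 10 of the 12 S phase genes were at least 1.5-fold lower in the AD library, and no member was 1.5-fold higher. Of all 13230 genes with at least 30 UMIs in the class, 12.7% were 1.5-fold lower and 7.69% were 1.5-fold higher in the AD library. The median log2 ratio was -0.93 over the S phase genes and -0.05 over all genes.

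**Figure D1:**
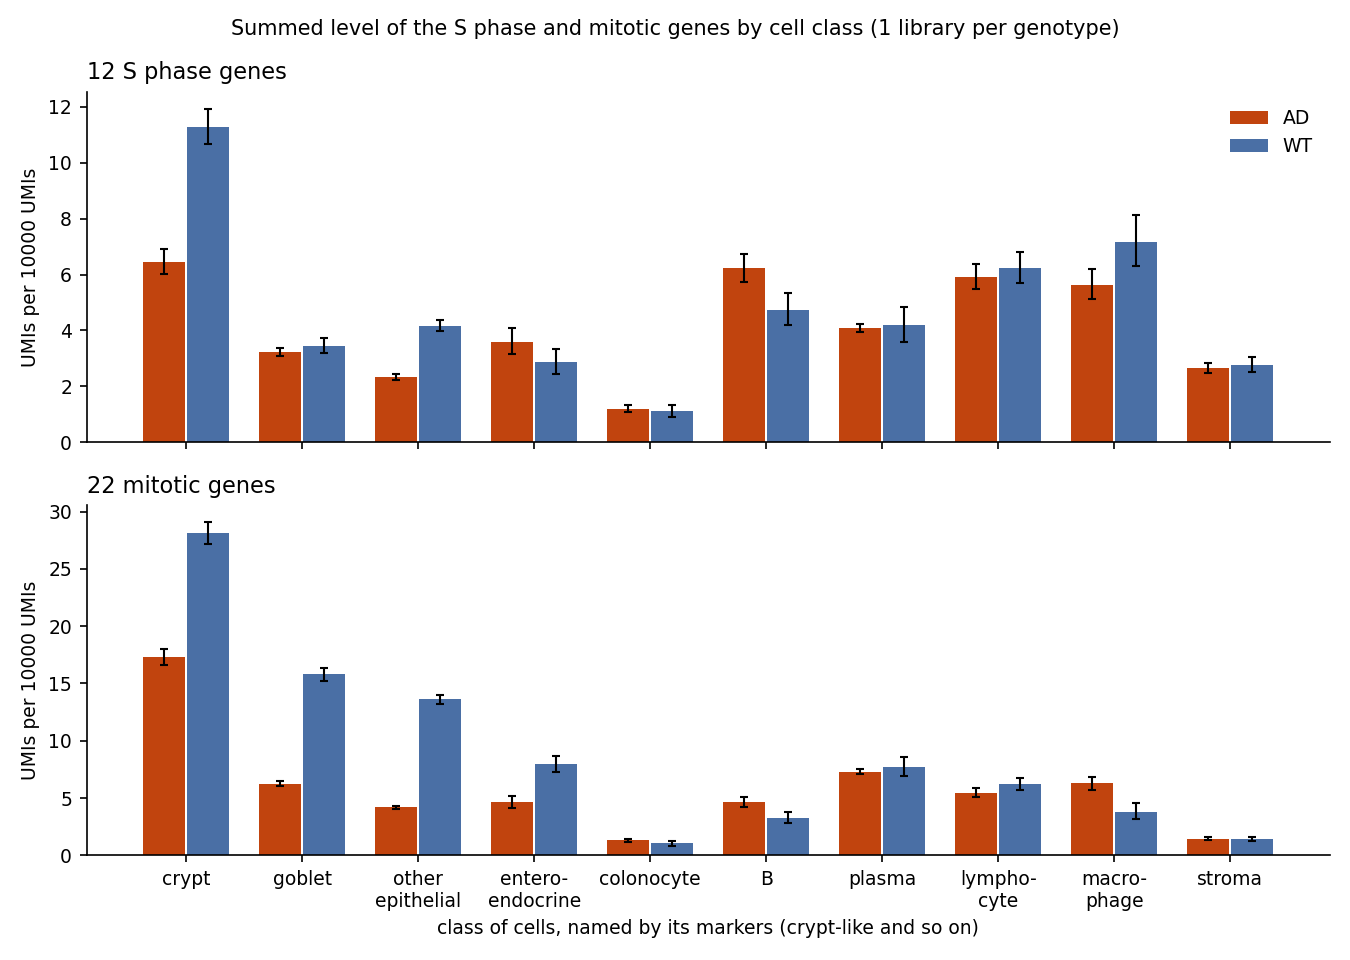
Summed UMIs of the 12 S phase genes (upper panel) and of the 22 mitotic genes (lower panel) per 10000 UMIs in each narrower cell class, AD library left of WT library; bars show the level and lines its exact 95% Poisson interval for counting error. Mitotic transcripts stand at 6.26 in AD and 15.8 in WT goblet-like cells, while stroma-like cells are at 1.43 in AD and 1.43 in WT.

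Among the S phase genes, the helicase subunits were lower together. Mcm3 had 8.23 CPM in AD epithelial-like cells and 19.3 CPM in WT ones, a ratio of 0.427. Mcm5 and Mcm7 had ratios of 0.398 and 0.426, and Mcm2, Mcm4 and Mcm6 of 0.579, 0.557 and 0.566. Gins2, a subunit of the GINS complex that joins MCM in the active helicase, had the lowest ratio of the S phase genes. It had 2.22 CPM in AD cells and 9.99 in WT cells (ratio 0.223, 0.149 to 0.328), and a UMI of it was found in 2.22% of AD and 10.8% of WT cells. The nucleotide suppliers were lower as well. Rrm1 and Rrm2, the large and small subunits of ribonucleotide reductase, stood at 15.9 and 11.5 CPM in AD cells, against 34.8 and 23.2 in WT cells. Tyms, thymidylate synthase, stood at 21.0 in AD cells and 35.5 in WT cells. The 2 S phase genes that missed the 1.5-fold mark were Pcna, at 150 in AD and 192 in WT cells (ratio 0.783, 0.736 to 0.833), and Ung, the uracil-DNA glycosylase, at 9.62 and 12.9 in AD and WT cells (0.744, 0.583 to 0.954). Pcna, which also serves DNA repair, contributed 53.6% of the S phase UMIs in AD cells and 42.7% in WT cells, and without it the S phase ratio was 0.505.

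The mitotic genes were lower across every role they have. Cdk1 had 13.8 CPM in AD epithelial-like cells and 47.0 in WT ones, a ratio of 0.293. Its partners Ccna2, Ccnb1 and Ccnb2, the A and B type cyclins, had ratios of 0.266, 0.324 and 0.328. The anaphase-promoting complex was represented by its activator Cdc20, at 7.06 in AD and 30.9 in WT cells (ratio 0.228, 0.183 to 0.283), and by its ubiquitin-conjugating enzyme Ube2c, at 30.1 in AD and 107 in WT cells (0.281). These 6 regulators of mitotic entry and exit therefore lay between 0.228 and 0.328.

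The chromosomal passenger complex, which corrects kinetochore attachments, comprises Aurkb, Birc5 and Cdca8 among the members, with ratios of 0.412, 0.288 and 0.382. The checkpoint kinase Bub1 was at 2.84 CPM in AD and 11.5 in WT cells (0.246). Pbk, a mitotic kinase, was at 6.17 in AD and 27.3 in WT cells (0.226), and the spindle kinase Aurka was at 5.73 and 14.8 (0.387). Centromere proteins Cenpa and Cenpf had ratios of 0.271 and 0.311. On mitotic chromatin, Top2a, which decatenates DNA, was at 21.4 in AD and 77.3 in WT cells (0.276), and Mki67, whose product coats mitotic chromosomes, was at 28.3 and 81.1 (0.348). Hmgb2, a DNA-bending protein, was at 207 in AD and 506 in WT cells (0.409). It gave 38.3% of the mitotic UMIs in AD cells and 35.8% in WT cells, and the summed ratio without it was 0.366. Among spindle proteins, Kif11, the motor that separates the poles, and Tpx2, which activates Aurora A, had ratios of 0.306 and 0.331. Nusap1, a microtubule-bundling protein, and Kif23, the motor of the central spindle used in cytokinesis, had ratios of 0.440 and 0.569. Stmn1 was at 60.0 in AD cells and 127 in WT cells (0.473). Plk1 alone among the mitotic genes was at a like level in both, with 59.3 CPM in AD and 56.2 in WT cells (1.06, 0.947 to 1.18).

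**Figure D2:**
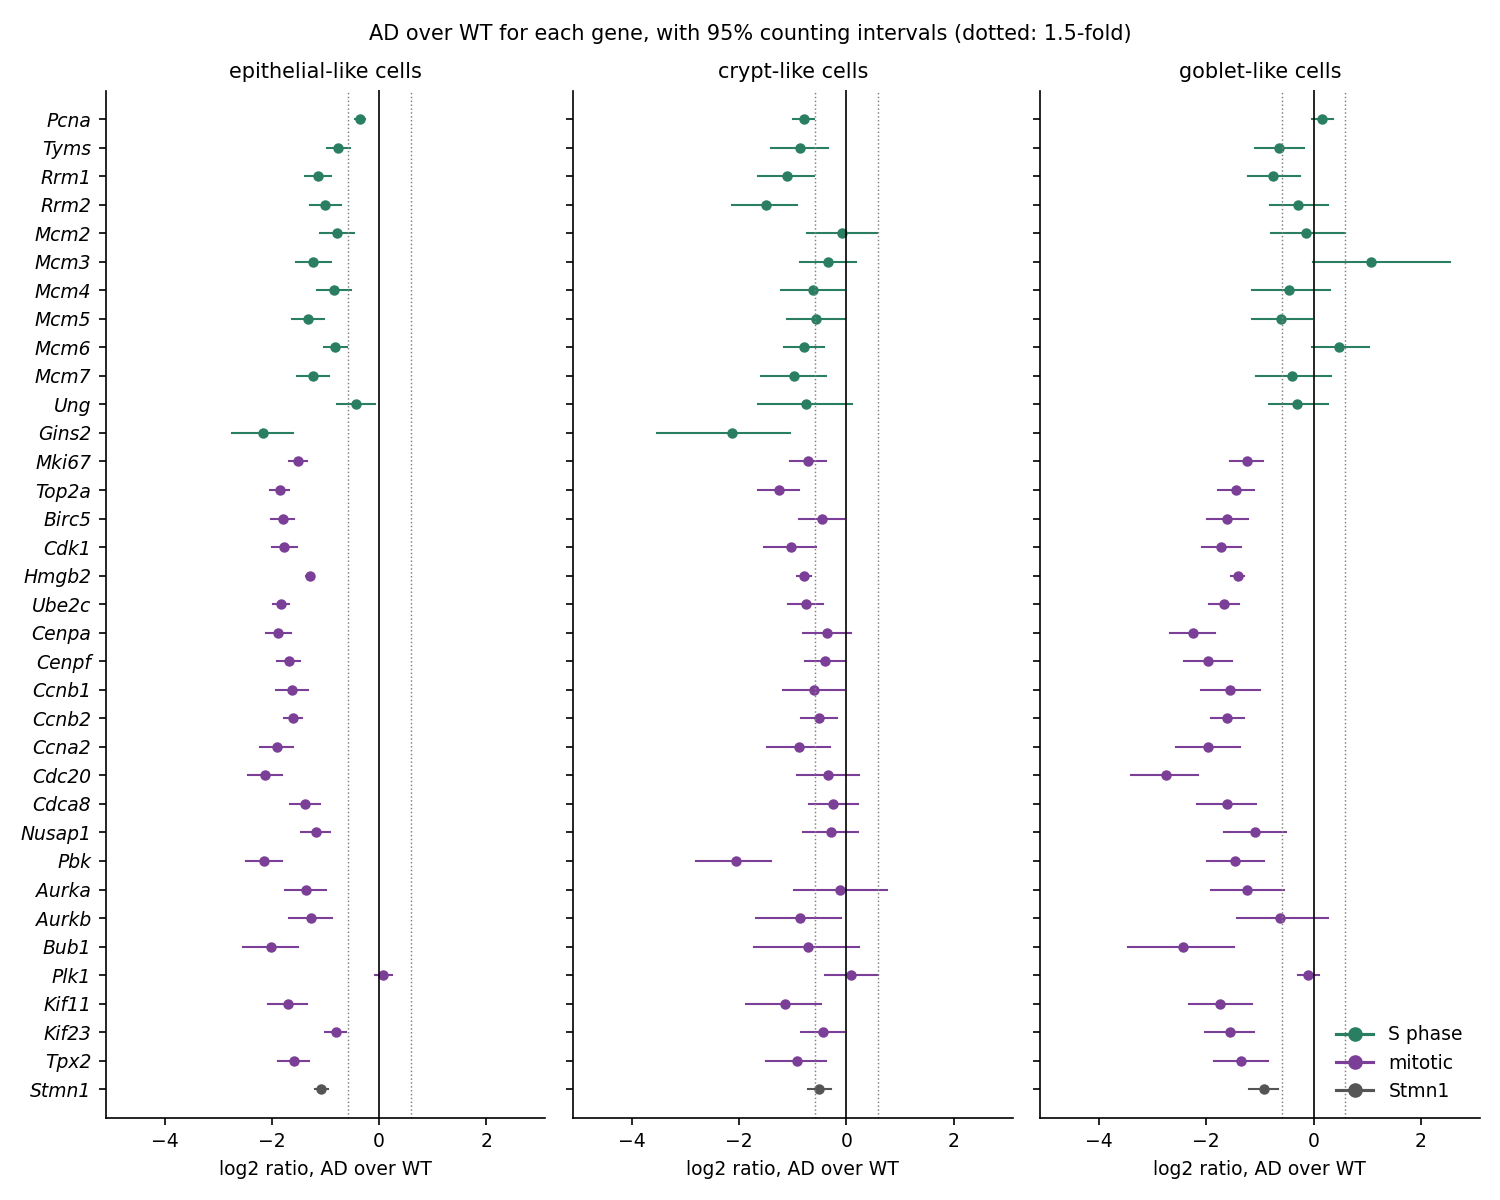
Log2 ratio of AD to WT for each gene with at least 30 UMIs in epithelial-like, crypt-like and goblet-like cells (left to right); points are ratios, horizontal lines their 95% intervals for counting error, the solid vertical line marks equality and the dotted ones 1.5-fold. In epithelial-like cells Plk1 (ratio 1.06) is the only mitotic gene right of the lower dotted line, whereas in goblet-like cells 7 of 11 S phase genes lie between the dotted lines.

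The goblet-like class, mucus-secreting cells (503 AD and 109 WT), separated the groups. Mitotic UMIs were 6.26 per 10000 in AD and 15.8 in WT goblet-like cells, a ratio of 0.396 (0.378 to 0.416). S phase UMIs were 3.23 per 10000 in AD and 3.44 in WT cells, a ratio of 0.939 (0.860 to 1.03). The 5 goblet-like cells richest in mitotic UMIs held 20.3% of them in AD and 39.8% in WT. For S phase UMIs the 5 richest held 15.6% in AD and 25.6% in WT. The intervals do not cover this unevenness between cells. Of 22 mitotic genes 21 were 1.5-fold lower in the AD library, and of 11 S phase genes with enough UMIs 3 were lower (Tyms, Rrm1 and Mcm5) and 1 was higher (Mcm3), beside 10.6% of all genes lower and 7.98% higher. The lowest mitotic ratios were those of Cdc20, at 5.62 CPM in AD and 38.1 in WT cells (0.147), Bub1 (0.183) and Cenpa, at 13.3 in AD and 63.4 in WT cells (0.209). Aurkb, with 6.47 in AD and 9.79 in WT cells, had an interval that spanned 1 (0.371 to 1.21). Pcna stood at 166 in AD and 148 in WT cells (1.12, 0.984 to 1.29), and Mcm6 at 27.4 and 19.6 (1.40). The higher call of Mcm3 rested on 47 AD and 7 WT UMIs, and its interval reached from 0.996 to 5.81.

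Crypt-like cells, recognized by crypt stem markers, were few (103 AD and 47 WT). They were unequal in depth, with medians of 11867 UMIs in AD and 24057 in WT cells. Their mitotic level was 17.3 per 10000 in AD and 28.1 in WT cells (ratio 0.614, 0.582 to 0.648), and their S phase level was 6.46 in AD and 11.3 in WT cells (0.572, 0.524 to 0.624). Of the members, 12 of 22 mitotic and 9 of 12 S phase genes were 1.5-fold lower in the AD library, beside 10.3% of all genes. Rrm2 was at 25.1 CPM in AD and 71.4 in WT crypt-like cells (0.351), Pbk at 17.7 and 75.0 (0.236), and Pcna at 266 and 461 (0.577). Mcm2 (0.941, 0.599 to 1.48) and Plk1 (1.06) lay near 1. These values depended on which cells were called crypt-like: at clustering resolution 2 the ratios were 1.23 for S phase and 1.16 for mitotic UMIs, and with cell cycle genes kept in the clustering they were 0.907 and 1.29. The direction of the crypt difference thus turned with the clustering, and the summed stem marker level was itself unequal, at 2091 CPM in AD and 1441 in WT cells.

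Epithelial-like cells with no narrower class (557 AD and 244 WT) had the lowest mitotic ratio of the classes examined here with over 100 cells per library, with 4.19 UMIs per 10000 in AD and 13.6 in WT cells (0.308), and an S phase ratio of 0.560. There 20 of 22 mitotic and 11 of 12 S phase genes were 1.5-fold lower, beside 10.8% of all genes. Mcm5 was at 3.95 CPM in AD and 25.2 in WT cells (0.157), Birc5 at 9.46 and 59.6 (0.159), and Kif11 at 2.40 and 15.7 (0.153). Plk1 at 0.723 and Kif23 at 0.687 were the 2 mitotic genes nearest to 1. The class was a mixture of subclusters, unequally filled in the libraries. In that with histone genes among its leading genes (44 AD and 91 WT cells), mitotic UMIs were 7.84 per 10000 in AD and 20.1 in WT. In that with Cenpa among them (33 AD and 56 WT cells), they were 11.8 and 21.5. In the remaining subclusters they were 4.67, 1.76, 6.13 and 2.07 in AD and 6.52, 2.13, 5.64 and 2.71 in WT. The part of this mixture in the ratio was not tested. Colonocyte-like cells, the absorptive cells of the surface (246 AD and 71 WT), had few transcripts of either group. Their levels were 1.33 mitotic and 1.20 S phase UMIs per 10000 in AD cells, against 1.04 and 1.11 in WT cells. In enteroendocrine-like cells, the hormone-secreting lineage (75 AD and 61 WT), mitotic UMIs were lower in the AD library at 4.64 per 10000, against 7.95 in WT cells, and S phase UMIs were 3.59 in AD and 2.87 in WT cells. Of 8 mitotic genes with enough UMIs 5 were lower there and 1, Plk1, was higher, beside 13.9% of all genes lower and 12.3% higher. All 12 goblet markers had UMIs in enteroendocrine-like cells and summed to 13520 CPM in AD and 489 CPM in WT. Their part in these values was not tested.

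The balance between the groups can be read within a library as mitotic UMIs per S phase UMI. In goblet-like cells it was 1.94 in the AD library (1.83 to 2.05) and 4.59 in the WT library (4.22 to 5.00). Of the WT goblet-like mitotic UMIs, 39.8% came from 5 cells. In epithelial-like cells the balance was 1.93 in AD and 3.15 in WT cells. Crypt-like cells had closer values, 2.67 in AD and 2.49 in WT cells, and so did lymphocyte-like cells (0.921 in AD, 0.996 in WT) and stroma-like cells (0.539 in AD, 0.515 in WT).

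**Figure D3:**
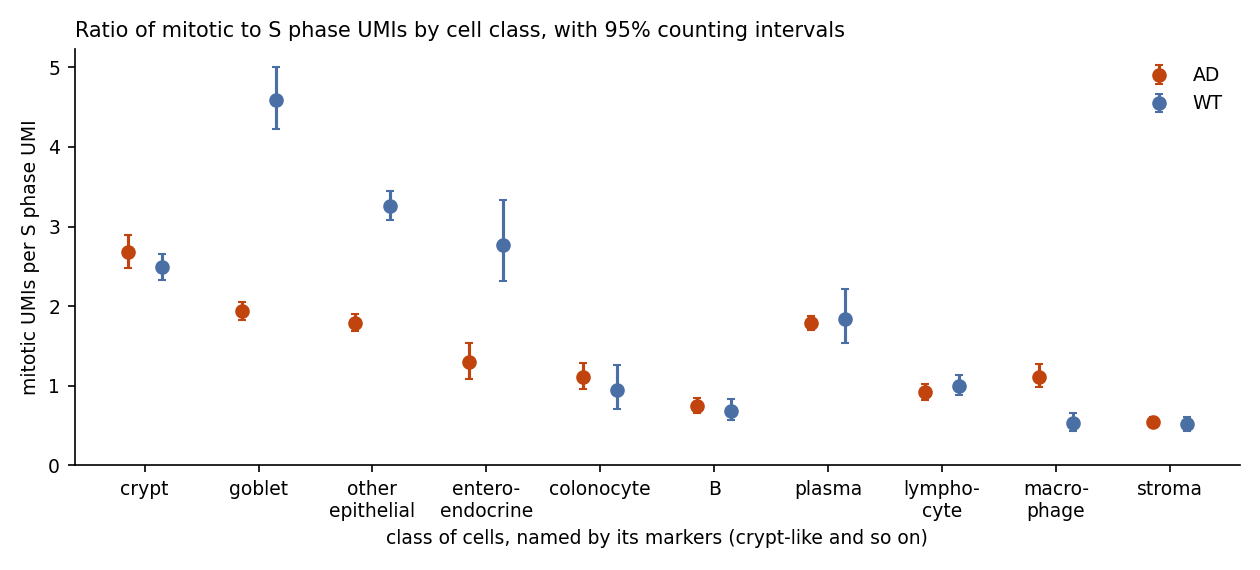
Mitotic UMIs per S phase UMI in each cell class, AD library left of WT library, with 95% intervals for counting error. Goblet-like cells are farthest apart, at 1.94 in AD and 4.59 in WT, and crypt-like cells lie at 2.67 and 2.49.

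A lower sum can come from fewer dividing cells or from fewer transcripts in each, and these were counted apart. Every cell with at least 1000 UMIs was thinned to 1000, and a cell with UMIs of at least 2 S phase genes or of at least 2 mitotic genes was counted as dividing. In epithelial-like cells 130 of 1385 AD cells (9.39%, 7.90% to 11.0%) and 127 of 484 WT cells (26.2%, 22.4% to 30.4%) met the mark, a ratio of 0.358. The ratio was 0.648 at a mitochondrial limit of 10%, 0.623 with no limit, 0.664 with other genes of the lists and 0.838 when 1 gene sufficed. The mitotic criterion was met by 94 AD cells (6.79%) and 113 WT cells (23.3%), and the S phase criterion by 50 AD cells (3.61%) and 28 WT cells (5.79%). The epithelial-like cells too shallow to be thinned were 103 in AD and 61 in WT. Without thinning, 57.3% of AD and 63.1% of WT cells had the 2 genes, a ratio of 0.907. In fibroblast-like cells, most of which are not cycling in a healthy colon, the shares were 2.74% in AD and 0.474% in WT. Over 20 draws of the thinning the fibroblast-like median was 2.45% in AD (1.44% to 3.75%) and 2.13% in WT (0.474% to 4.27%). The printed WT share is thus the lowest draw, and the fibroblast-like background lies near the medians. The background planned for the count was that of enteroendocrine-like and plasma-like cells. Their medians over the draws were higher, at 7.86% and 9.92% in AD and at 9.65% and 11.6% in WT. The AD epithelial-like share lay near these values, and the WT share above them. Plasma-like cells were not free of mitotic transcripts, however. In AD, the 63 plasma-like cells that met the mitotic criterion carried 41.2 mitotic UMIs per 10000. They held 75.1% of the mitotic UMIs of their class. The plasma-like share therefore cannot be read as the count expected without division. The epithelial-like medians were 9.39% in AD and 25.1% in WT.

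**Figure D4:**
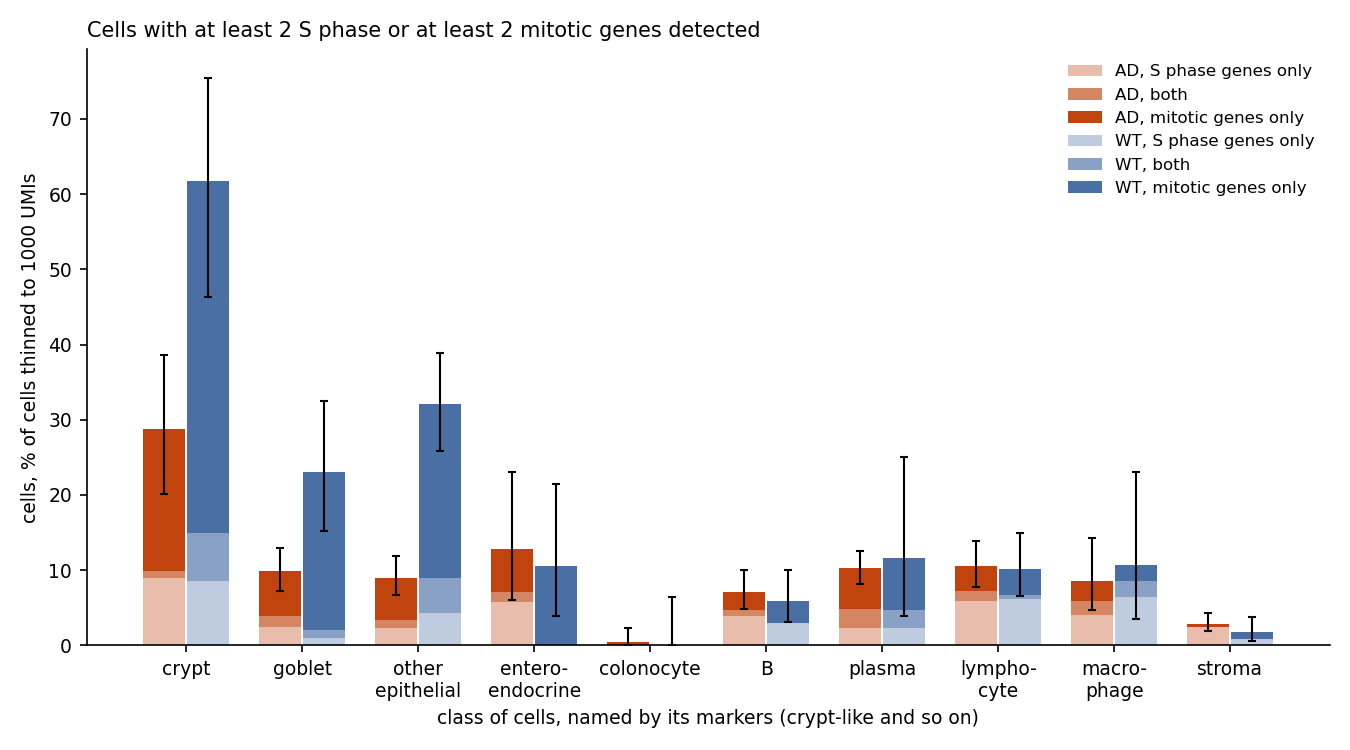
Percentage of cells of each class, thinned to 1000 UMIs, with at least 2 S phase or at least 2 mitotic genes, AD library left of WT library; shades part the cells that met the S phase criterion, both, or the mitotic criterion, and lines are exact 95% binomial intervals of the whole bar. Crypt-like cells stand at 28.7% in AD and 61.7% in WT, while lymphocyte-like cells stand at 10.5% and 10.2%.

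By epithelial class, 29 of 101 AD crypt-like cells (28.7%) and 29 of 47 WT ones (61.7%) were counted as dividing. In goblet-like cells they were 45 of 458 in AD (9.83%) and 23 of 100 in WT (23.0%). In WT goblet-like cells 22 met the mitotic and 2 the S phase criterion, and in AD goblet-like cells 34 met the mitotic and 18 the S phase criterion. The S phase side rested on these 2 WT cells. Its shares were 3.93% in AD and 2% in WT, a ratio of 1.97 (0.470 to 17.5). In epithelial-like cells without a narrower class the shares were 9.02% in AD and 32.1% in WT. In enteroendocrine-like cells they were 9 of 70 in AD (12.9%) and 6 of 57 in WT (10.5%), a ratio of 1.22 (0.388 to 4.17). Over the 20 draws the enteroendocrine-like median was 7.86% in AD (2.86% to 14.3%) and 9.65% in WT (3.51% to 14.0%). The direction in this class thus turned with the draw. Over the 20 draws the crypt-like share ran from 24.8% to 32.7% in AD and from 46.8% to 68.1% in WT. Only 1 of 243 AD colonocyte-like cells was counted, and 0 of 56 WT ones, which allows a share of up to 5.36% by 3 counts of the total and of up to 6.38% by the binomial interval.

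Cells that met the mitotic criterion carried 34.6 mitotic UMIs per 10000 in AD and 37.6 in WT epithelial-like cells, a ratio of 0.921 (0.889 to 0.954). They held 48.1% of the mitotic UMIs of the AD class and 73.4% of those of the WT class. The remaining epithelial-like cells carried 3.03 per 10000 in AD and 5.21 in WT. In crypt-like cells the mitotic cells of the AD library were the richer ones, at 53.9 per 10000 against 41.9 in WT. In the other epithelial classes with mitotic cells in both libraries they were the poorer ones. The ratios were 0.805 (0.753 to 0.859) in goblet-like cells, 0.747 (0.698 to 0.799) in those without a narrower class and 0.675 (0.538 to 0.841) in enteroendocrine-like cells. Since the cells were chosen by these same genes, the values describe the cells that passed and are no test of transcripts per cell.

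The classes did not take equal shares of the epithelium. Crypt-like cells gave 7.54% of epithelial-like UMIs in AD and 13.0% in WT, and goblet-like cells 32.7% in AD and 22.8% in WT. With the AD levels weighted by the WT shares, an alternative added after the values were seen, the mitotic ratio was 0.429 and the S phase ratio was 0.680. The weighting took the cells without a narrower class as a single class. It therefore left the unequal filling of their subclusters in place and cannot tell how much of the difference lies in composition. When cells of every mitochondrial content were kept, the mitotic ratio was 0.521, the S phase ratio was 0.842, and the number of S phase genes 1.5-fold lower was 5.

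Plk1 did not behave as the other mitotic genes did within goblet-like cells. For each gene, goblet-like cells were split, after thinning, by how many of the remaining mitotic genes they carried. Ube2c was at 375 CPM in AD cells with 2 or more and 5.43 in AD cells with 0, and at 290 and 44.0 in the same WT cells. Plk1 was at 136 and 138 in AD cells and at 111 and 169 in WT cells. Its level therefore did not follow that of the other mitotic genes in this class. Over all epithelial-like cells Plk1 was higher in the cells with 2 or more, at 116 against 56.0 in AD and 80.7 against 47.4 in WT. In the GENCODE annotation Plk1 adjoins, end to end and on opposite strands, the gene Ern2, which encodes an endoplasmic reticulum stress sensor of mucus-secreting epithelium. Their levels ran side by side through most epithelial classes. Crypt-like cells had more Plk1, at 60.5 in AD and 57.0 in WT, than Ern2, at 45.7 in AD and 34.4 in WT. In epithelial-like cells without a narrower class Plk1 stood at 23.0 in AD and 31.8 in WT, and Ern2 at 25.7 and 28.5. In goblet-like cells Plk1 stood at 135 in AD and 144 in WT, and Ern2 at 152 in AD and 163 in WT. In enteroendocrine-like cells Plk1 stood at 33.4 in AD and 17.3 in WT, and Ern2 at 45.6 in AD and 15.6 in WT, in a class whose goblet marker sum was also higher in AD. In colonocyte-like cells Plk1 stood at 2.02 and 1.07, and Ern2 at 5.05 and 3.22, in AD and WT. B-like cells had 5.02 CPM of Plk1 in AD and 0 UMIs in WT, and 0 UMIs of Ern2 in both. Whether part of the Plk1 count comes from Ern2 reads was not tested, and without Plk1 the mitotic ratio of goblet-like cells was 0.342. A protein-coding neighbour on the other strand that overlaps or adjoins its end was annotated for 8 of the members, Plk1 included. Mcm7, Gins2, Ube2c, Ccna2, Cdc20, Cdca8 and Nusap1 are the others. Whether the counts of these members share reads with their neighbours was not tested. Tnnc2, the neighbour of Ube2c, had 0 UMIs in both libraries.

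**Figure D5:**
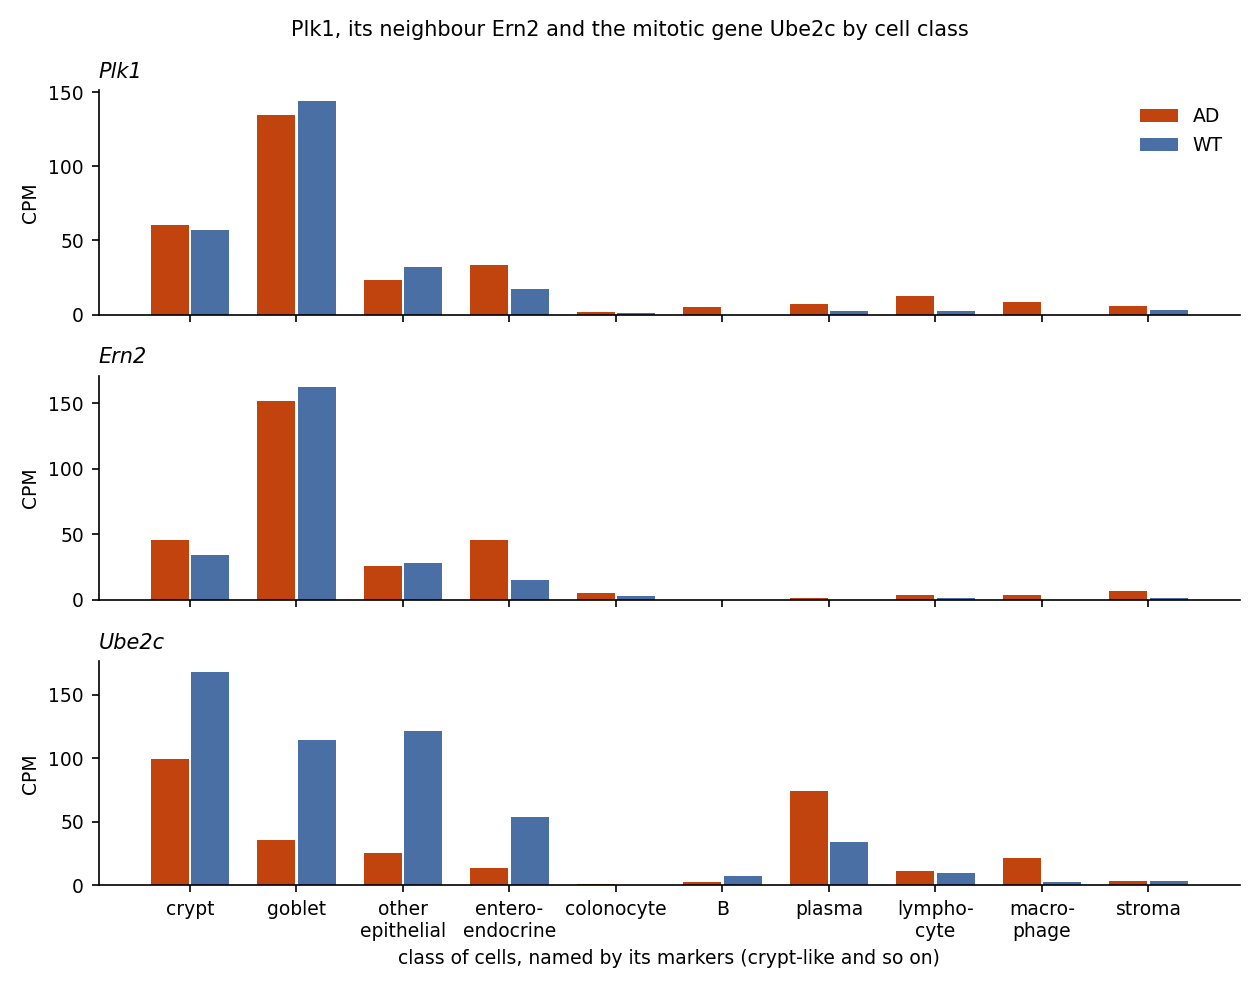
CPM of Plk1, of its end-to-end neighbour Ern2 and of the mitotic gene Ube2c in each cell class, AD library left of WT library. Plk1 and Ern2 both peak in goblet-like cells, with Plk1 at 135 in AD and 144 in WT and Ern2 at 152 and 163, whereas Ube2c is at 36.1 in AD and 114 in WT goblet-like cells.

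Genes of the same processes outside the 35 were counted from separate lists. In epithelial-like cells 40 of 50 other S phase genes and 65 of 74 other mitotic genes were 1.5-fold lower in the AD library, beside 12.7% of all genes. The lowest were Dscc1 (0.223), Clspn (0.244) and Chaf1b (0.313) of the replication list, and Troap (0.173), Ttk (0.189) and Foxm1 (0.220) of the mitotic list. Clspn is a replication checkpoint protein, Ttk a spindle checkpoint kinase, and Foxm1 the transcription factor of G2 and mitotic genes. Pttg1, securin, was near equal (0.943). Of 15 regulators of cell cycle entry 2 were lower, E2f1, a factor of S phase genes, at 2.06 CPM in AD and 6.11 in WT cells (0.337), and Ccne1, cyclin E (0.578), a share near the 12.7% of all genes that were lower. Of 19 inhibitors and exit genes 4 were lower and 2 higher, beside 12.7% and 7.69% of all genes. Cdkn1c, the kinase inhibitor p57, was at 6.01 in AD and 16.3 in WT cells (0.368), and Btg1, an antiproliferative gene, was at 483 in AD and 319 in WT cells (1.51). In goblet-like cells 55 of 62 other mitotic and 11 of 42 other S phase genes were lower, beside 10.6% of all genes.

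The mitotic cells of both libraries were also set against cells of their own library with no UMI of a member after thinning, as a description, over genes with at least 30 UMIs in the class in each library. In epithelial-like cells 63 of 66 other mitotic genes and 41 of 46 other S phase genes were 1.5-fold higher in the mitotic cells of both libraries, beside 14.0% of all genes. Of 19 inhibitors and exit genes 7 were lower in both, beside 7.22%, and 3 were higher. Cdkn1a, the kinase inhibitor p21, was at 160 CPM in AD mitotic cells and 377 in the other AD cells, and at 151 and 309 in the same WT cells. Cdkn2c, the inhibitor p18, was at 24.6 and 5.37 in AD and at 26.1 and 4.38 in WT. In crypt-like cells 31 of 34 other mitotic genes and 7 of 26 other S phase genes were higher in the mitotic cells of both libraries, beside 5.97% of all genes, and 2 of 9 entry regulators were lower, beside 4.56%. The genes outside all lists with the highest ratios there were led by Diaph3, Odf2 and Tubb5. Tubb5, a beta tubulin, was at 515 CPM in AD mitotic cells and 60.8 in the other AD cells, and at 409 and 33.7 in WT. In goblet-like cells 35 of 36 other mitotic genes and 10 of 16 other S phase genes were higher in the mitotic cells of both libraries, beside 7.06% of all genes, and 2.1% of all genes were lower in both. The goblet granule gene Zg16, picked out after its values were seen, was at 17.6 in AD mitotic and 1535 in the other AD goblet-like cells, and at 0 UMIs and 3372 CPM in WT. Zg16 is 1 of the 12 goblet markers. The others are not given for these cells, so its values do not describe the goblet markers as a set.

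B-like cells went the other way in sum, but on few cells. S phase UMIs were 6.23 per 10000 in 470 AD cells and 4.74 in 225 WT cells (1.31, 1.14 to 1.52), and mitotic UMIs were 4.65 in AD and 3.25 in WT (1.43, 1.20 to 1.70). Of the members with enough UMIs, 6 of 8 S phase and 2 of 5 mitotic genes were 1.5-fold higher in AD B-like cells, beside 14.6% of all genes, and no member was 1.5-fold lower, beside 8.45%. Mcm3 had 31 AD and 4 WT UMIs (ratio 4.40, 1.56 to 17.2), Mcm4 35 and 6 (3.31), Rrm2 26 and 4 (3.69) and Top2a 31 and 6 (2.93). The members with the most UMIs were near 1, Pcna being at 374 CPM in AD and 359 in WT (1.04) and Hmgb2 at 243 and 230 (1.06). The 5 cells richest in mitotic UMIs held 42.3% of them in AD and 13.6% in WT, and without the 5 richest cells of each library both ratios were 0.962. The dividing share was 7.13% (29 of 407) in AD and 5.85% (12 of 205) in WT, and its intervals overlapped. Of the 15 B cell markers 14 had UMIs in both libraries, with Ms4a1 at 0. Markers of other cell types moved with the B-like sums. Plasma markers came to 8255 CPM in AD (11 of 11 with UMIs) and 465 CPM in WT (9 of 11, Tnfrsf17 and Derl3 at 0). Goblet markers came to 1176 CPM in AD (12 of 12) and 366 CPM in WT (10 of 12, Ano7 and Spdef at 0), and crypt stem markers to 330 CPM in AD (14 of 16, Sp5 and Tnfrsf19 at 0) and 118 CPM in WT (10 of 16, those and Ascl2, Smoc2, Ephb3 and Sox9 at 0). Their part in the B-like ratios was not tested. Of the germinal centre genes, Gcsam had 0 UMIs in both libraries, and Bcl6, the germinal centre repressor, was at 89.4 CPM in AD and 145 in WT (0.616).

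Lymphocyte-like cells, which hold T cells and innate lymphocytes (503 AD and 243 WT), had near equal sums, with ratios of 0.952 for S phase (0.848 to 1.07) and 0.881 for mitotic UMIs (0.783 to 0.991). Rrm2 was lower in AD (0.420, 0.238 to 0.726), and Mcm5 (2.63, 1.24 to 6.22) and Mki67 were higher, 3 of 18 members counted, beside 10.2% of all genes lower and 14.9% higher. Its clusters differed in direction. In the cluster led by Tnfrsf4 and Foxp3, the marker of regulatory T cells (138 AD and 25 WT cells), mitotic UMIs were 9.88 per 10000 in AD and 3.45 in WT (2.87, 1.89 to 4.54), and the 3 richest cells held 54.7% of them in AD and 50% in WT. In the cluster led by Il17a, Il13 and Gata3 (131 AD and 29 WT cells), they were 3.87 in AD and 17.5 in WT (0.221, 0.177 to 0.277). In that cluster the 3 richest WT cells held 87.5% of the WT mitotic UMIs. In the cluster led by Ccl5, Klrd1 and Nkg7 (234 AD and 189 WT cells) they were 3.77 in AD and 4.26 in WT (0.887).

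Stroma-like cells were near the floor for mitosis, with 1.43 mitotic UMIs per 10000 in AD and 1.43 in WT (1.01, 0.858 to 1.18) and an S phase ratio of 0.960. Of 13 members with enough UMIs, 2 were lower (Tyms and Mcm5) and 2 higher (Mcm2 and Top2a), beside 12.9% of all genes lower and 9.05% higher. Stmn1 was the member that differed most, at 14.4 CPM in AD and 47.7 in WT stroma-like cells (0.302, 0.207 to 0.437). In the WT library 36 enteric glia-like cells carried 49 of the 76 stroma-like Stmn1 UMIs, and the AD library had 3 such cells with 4 UMIs. In fibroblast-like cells alone the Stmn1 ratio was 0.729 (0.392 to 1.41). Macrophage-like cells (186 AD and 55 WT) had a mitotic ratio of 1.65 and an S phase ratio of 0.787. Mki67, Top2a and Ccnb2, 3 of the 4 mitotic genes counted, were 1.5-fold higher there, beside 18.6% of all genes, and Ccnb2 rested on 33 AD UMIs and 1 WT UMI. The 5 macrophage-like cells richest in mitotic UMIs held 45.5% of them in AD and 39.2% in WT. The mitotic criterion was met by 7 AD cells (4.64%) and 2 WT cells (4.26%), and the ratio of dividing shares was 0.809 (0.271 to 2.90). Plasma markers in the class came to 11733 CPM in AD and 625 CPM in WT, with Mzb1, Tnfrsf17, Derl3 and Eaf2 at 0 in WT, and their part was not tested. Plasma-like cells, with 44 WT cells, had a mitotic ratio of 0.945 and an S phase ratio of 0.975. In plasma-like cells 5 WT cells held 85.3% of the WT mitotic UMIs, so no single gene is compared there.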

How the data were processed

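The deposited matrices hold raw UMI counts per gene and cell barcode, 1 matrix per library, and the lowest barcode has 500 UMIs. Per the submitters' processing notes, the authors used Cell Ranger 3.0.1, STAR and Seurat 3.0.2 with mm10; which annotation release was counted is not given in the sources used here, and coordinates printed are those of RefSeq GRCm38.p6. Barcodes under 500 UMIs, under 200 genes or over 25% mitochondrial UMIs were dropped. Scrublet marked 2 AD and 4 WT barcodes, under 0.5%, so doublets were in effect not removed. Cells were clustered with scanpy 1.11.5 and leidenalg 0.10.2 (2000 variable genes, 30 components, 15 neighbours, resolution 1) without 269 cell cycle and histone genes, and epithelial-like cells without a class were clustered again. A cluster took a class name if 3 or more markers, and 0.3 or more of the list, were found in 10% of its cells and 4-fold over the rest (2-fold at the second level).

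UMIs were summed per library and class. Levels have exact Poisson intervals, ratios exact conditional intervals and shares Clopper-Pearson intervals. With 1 library per genotype there is no test; a gene was counted as lower or higher at 1.5-fold with at least 30 UMIs over both libraries, with 0.5 UMIs added for the log2 ratio. Thinning to 1000 UMIs used a fixed seed and was repeated in 20 draws. Genes outside the 35 were named as the 3 with the largest ratio in each direction per list, or, for the crypt-like mitotic cells, the 10 with the highest ratio over both libraries. Zg16 was named outside these rules. The members and lists were chosen with earlier results of these data known. Alternatives were the mitochondrial limit, the clustering, doublets kept, thinning depth, denominator, other genes of the lists and the removal of the 5 richest cells. The scripts were tested on simulated counts.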

Additional observations from a re-analysis of the deposited data

Results flagged for a closer look

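Epithelial-like and B-like cells were picked out because their ratios lay on opposite sides of 1. The S phase ratio of AD to WT was 0.624 in epithelial-like cells and 1.31 in B-like cells. The mitotic ratio was 0.381 in epithelial-like cells and 1.43 in B-like cells. The difference was not tested, since each genotype has 1 library, and the B-like values were 0.962 for both groups without the 5 richest cells of each library.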

How the results depend on the processing

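Every ratio rests on 1 library per genotype, so mouse, dissociation and genotype cannot be told apart, and far more WT than AD barcodes exceeded the mitochondrial limit. Over all alternatives run, the epithelial-like mitotic ratio stayed below 1 in 17 of 17 (0.331 to 0.536), the S phase ratio in 16 of 16 (0.505 to 0.842), and the dividing share ratio in 19 of 19 (0.258 to 0.907). The goblet-like mitotic ratio was below 1 in 14 of 14. The crypt-like and B-like UMI ratios turned direction under some settings, while the crypt-like dividing share ratio was below 1 in 16 of 16 (0.259 to 0.943). Its interval, or its range over the draws, lay wholly below 1 in only 6 of these 16. No cause of a moved value was tested. Restriction to cells of 10% to 20% mitochondrial UMIs, removal of single genes or subclusters and weighting by WT shares were chosen after seeing the data. No paired analysis was possible because each genotype has 1 library.

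With a mitochondrial limit of 10%, the epithelial-like ratios were 0.729 (S phase), 0.486 (mitotic) and 0.648 (dividing share); with 50% they were 0.717, 0.440 and 0.467; with no limit they were 0.842, 0.521 and 0.623, and 5 rather than 10 S phase genes were lower. In cells of 10% to 20% mitochondrial UMIs they were 0.559, 0.331 and 0.258. Thinned cells gave 0.748 and 0.421 for the S phase and mitotic ratios, a denominator without mitochondrial, ribosomal protein, immunoglobulin and haemoglobin genes 0.596 and 0.364, the other genes of the lists 0.580 and 0.536, and WT shares 0.680 and 0.429. Without the subclusters with cell cycle or histone genes among their leading genes they were 0.676 and 0.437. The S phase ratio was 0.683 without the 5 richest cells of each library and 0.505 without Pcna. The mitotic ratio was 0.366 without Hmgb2 and 0.353 without Plk1. It was 0.394 without the subclusters that had a gene of another cell type among their leading genes. The subcluster with histone genes among its leading genes (44 AD and 91 WT cells) was left out in both subcluster alternatives. The dividing share ratio was 0.520 at 2000 UMIs, 0.907 without thinning, 0.838 at a minimum of 1 gene, 0.270 at 3 genes and 0.664 with the other genes.

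In crypt-like cells the S phase ratio was 0.677 without the 5 richest cells, 0.658 thinned, 0.444 with no mitochondrial limit, 0.730 with called doublets kept, 0.907 when clustered with all genes, 1.23 at resolution 2 and 0.447 at resolution 0.5. The mitotic ratio was 0.492 without the 5 richest cells, 0.513 thinned, 0.663 at 10% to 20% mitochondrial UMIs, 0.306 at the 10% limit, 0.667 with no limit, 0.659 with doublets kept, 1.29 when clustered with all genes, 1.16 at resolution 2 and 0.397 at resolution 0.5. The dividing share ratio, 0.465 as reported, was 0.943 both without thinning and at a minimum of 1 gene, and 0.259 at the 10% limit. S phase genes 1.5-fold lower numbered 2 at the 10% limit, 2 with all genes and 1 at resolution 2; mitotic ones numbered 7, 0 and 1 there, and 21 at resolution 0.5. Mki67 was at 1.14 with all genes and 2.48 at resolution 2, Pcna at 1.11 and 1.34, and at resolution 2 Top2a was at 1.29 and Rrm2 at 3.20. Elsewhere Mcm5 in goblet-like cells was at 1.91 at the 10% limit and Pcna in epithelial-like cells at 1.08 with no limit.

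In B-like cells the S phase ratio was 0.962 without the 5 richest cells, 1.06 thinned, 0.851 at 10% to 20% mitochondrial UMIs and 2.17 without Pcna. The mitotic ratio was 0.962, 1.08 and 0.842 under the first 3 of these, 1.04 with the other genes and 2.32 without Hmgb2. The B-like dividing share ratio was 3.11 at 500 UMIs, and at 3 genes it had no value. In lymphocyte-like cells the S phase ratio was 1.14 at 10% to 20%, the mitotic ratio was 1.04 without the 5 richest cells and 1.06 without Hmgb2, and the dividing share ratio was 2.38 at 3 genes. In stroma-like cells the mitotic ratio was 0.853 thinned and 1.28 without Hmgb2, and the dividing share ratio was 0.499 at 500 UMIs, 0.657 at 2000 UMIs and 0.474 at 10% to 20%.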
